A study of Mus musculus with 11 samples.

Results

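The galectin family was followed in the tibialis anterior (TA) muscle of wild-type, dystrophic and treated dystrophic mice. Its 5 members here are *Lgals1*, *Lgals3*, *Lgals3bp*, *Lgals8* and *Lgals9*. They were found by an exact match of the gene symbol in the deposited table, which held 28350 probe sets (the groups of array probes read out as 1 value) for 21759 symbols, and each member had 1 probe set. Messenger RNA was measured on 1 Affymetrix Mouse Gene ST 1.1 array per mouse. The 11 male mice were harvested at 14 weeks of age and shared the C57/B10 background: 3 wild-type, untreated mice (C57), 4 untreated *mdx* mice, which lack dystrophin through a mutation in *Dmd*, and 4 *mdx* mice given a single tail vein injection of 12.5 mg/kg Pip6e-PMO at 12 weeks of age. Pip6e-PMO is a peptide-conjugated morpholino that makes the muscle skip the mutated *Dmd* exon, so that a shortened dystrophin can be made. The muscle was taken as cryosections from its mid-belly, so each value averages fibres and the other cells between them.

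Galectins are sugar-binding proteins that recognise galactose-containing glycans on membrane and matrix proteins and cross-link them. They are made in the cytosol and reach the cell surface without the classical secretory route. Galectin-1 (*Lgals1*) is the prototype of the family, is abundant in skeletal muscle and takes part in myoblast fusion. Galectin-3 (*Lgals3*) joins its sugar-binding domain to a tail through which it self-associates, and was first known as the macrophage antigen Mac-2. Galectin-8 (*Lgals8*) and galectin-9 (*Lgals9*) each carry a pair of linked sugar-binding domains. Galectin-8 is known for marking damaged endosomes and lysosomes, and galectin-9 for acting on T cells and for its induction by interferon. *Lgals3bp* is not itself a galectin: it encodes a secreted glycoprotein that galectins, galectin-3 among them, bind.

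The probe set of *Lgals1* (10425161, 25 probes) is placed by the deposited annotation on chromosome 15 from 78757155 to 78760897, plus strand, and that of *Lgals3* (10414360, 26 probes) on chromosome 14 from 47993593 to 48005835, plus strand. The probe set of *Lgals3bp* (10393573, 25 probes) lies on chromosome 11 from 118254063 to 118263273, minus strand, and that of *Lgals9* (10388902, 31 probes) on the same chromosome from 78776481 to 78798353, minus strand. The probe set of *Lgals8* (10407766, 41 probes) lies on chromosome 13 from 12531686 to 12557209, minus strand. The annotation does not name the genome build of these positions. On this type of array the probes of a gene are spread over its exons, and the annotation gives all 5 as free of cross-hybridising probes.

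RefSeq promoters (build GRCm38.p6, 250 bases before to 50 after the gene start) were matched for 4 of the 5 members: *Lgals3*, *Lgals3bp*, *Lgals8* and *Lgals9*. The window of *Lgals8* surrounds a start inside the span of the gene and is not described. Those of *Lgals3* (chr14:47373610-47373909, plus strand), *Lgals3bp* (chr11:118401910-118402209, minus strand) and *Lgals9* (chr11:78984875-78985174, minus strand) are shown because these are the members with the largest falls in the treated mice. Each runs 5′ to 3′ on the strand of its gene, and capitals mark the matches to the motifs named after them.
Lgals3: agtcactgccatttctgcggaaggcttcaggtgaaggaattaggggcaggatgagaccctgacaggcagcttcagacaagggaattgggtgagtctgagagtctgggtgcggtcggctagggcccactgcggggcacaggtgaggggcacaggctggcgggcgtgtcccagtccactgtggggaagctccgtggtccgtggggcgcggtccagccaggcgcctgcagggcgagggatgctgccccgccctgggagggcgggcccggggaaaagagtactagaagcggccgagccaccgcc
Lgals3bp: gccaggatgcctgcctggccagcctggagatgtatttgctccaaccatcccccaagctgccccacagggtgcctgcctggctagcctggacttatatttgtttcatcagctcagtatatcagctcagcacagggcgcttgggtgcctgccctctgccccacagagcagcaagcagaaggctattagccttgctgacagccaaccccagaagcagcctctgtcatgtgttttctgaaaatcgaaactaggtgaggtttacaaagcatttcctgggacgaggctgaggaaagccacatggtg
Lgals9: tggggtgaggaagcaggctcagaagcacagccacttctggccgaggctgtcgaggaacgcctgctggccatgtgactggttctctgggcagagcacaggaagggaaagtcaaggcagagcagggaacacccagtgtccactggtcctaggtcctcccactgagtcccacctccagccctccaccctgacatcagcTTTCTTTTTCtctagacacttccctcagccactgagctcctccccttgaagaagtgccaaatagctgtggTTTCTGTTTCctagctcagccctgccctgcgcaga
The *Lgals3* promoter was the richest of the 3 in G and C, at 67.0% with 18 CG pairs. *Lgals9* had 58.0% with 4 pairs and *Lgals3bp* 55.0% with 3, and the medians over 32851 promoters were 52.7% and 7 pairs. Both strands were searched for an AP-1 site (TGANTCA, in 7.81% of all promoters), the core of the interferon-stimulated response element (GAAA, any 2 bases and GAAA, in 3.44%), a kappaB site (GGG, any 2 bases and TTTCC, in 1.63%) and a TATA box (TATAAA, in 13.6%). Neither *Lgals3* nor *Lgals3bp* held a searched motif. *Lgals9* held the interferon core at 2 places on the opposite strand, TTTCTTTTTC from base -55 and TTTCTGTTTC from base 16, counted from the gene start. A match to letters is not evidence that a factor binds.

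Between *mdx* and C57 muscle, *Lgals3* rose 5.96-fold and *Lgals9* rose 1.41-fold, while *Lgals1*, *Lgals3bp* and *Lgals8* did not pass the test. Signals are linear RMA intensities, background-corrected and quantile-normalised by the authors, and every difference is between means of their log2. A member was called where limma's moderated test, fitted over the 14494 probe sets whose mean signal reached 30 in some group, gave a Benjamini-Hochberg adjusted p under 0.05, and all 5 members passed that filter. Thus 2 of 5 members were called, both higher, where 12.0% of all tested probe sets were called in this comparison and 7.06% were called higher. The median difference of the 5 was 0.46 on the log2 scale, against -0.01 over all tested probe sets.

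*Lgals3* had signals of 124.5, 106.9 and 85.6 in the C57 mice. The *mdx* mice had 467.9, 831.7, 530.1 and 729.1, and the treated mice 209.4, 433.5, 195.4 and 302.3. The 3 groups did not overlap, with C57 lowest, the treated mice between and *mdx* highest. In log2 units the means were 6.71 ± 0.27 (SD, n = 3), 9.28 ± 0.39 (SD, n = 4) and 8.08 ± 0.53 (SD, n = 4), in the same order. The *mdx* mean lay 2.58 above the C57 mean (SE 0.27, 95% confidence interval 1.98 to 3.17), a fold of 5.96 with an interval of 3.94 to 9.02 and a limma adjusted p of 1.2e-04. The call held with each mouse left out in turn.

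*Lgals9* had signals of 352.1, 326.3 and 377.4 in C57, of 508.5, 515.6, 415.9 and 545.0 in *mdx*, and of 302.3, 398.9, 362.0 and 344.9 in treated muscle. Every *mdx* mouse lay above every C57 mouse and every treated mouse, and the C57 and treated mice overlapped. The log2 means were 8.46 ± 0.11 (SD, n = 3), 8.95 ± 0.17 (SD, n = 4) and 8.45 ± 0.17 (SD, n = 4). The *mdx* mean was 0.49 above C57 (SE 0.12, interval 0.23 to 0.76, limma adjusted p = 0.0204). This call was lost without C57 mouse 1 (limma adjusted p = 0.0549), C57 mouse 2 (0.0967), *mdx* mouse 2 (0.0565) or *mdx* mouse 4 (0.0533).

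*Lgals3bp* had signals of 501.5, 433.5 and 564.2 in C57, of 675.6, 652.6, 621.7 and 786.9 in *mdx*, and of 364.6, 526.4, 442.6 and 398.9 in treated muscle. The *mdx* mice were above all others, and the treated mice overlapped with C57. The log2 means were 8.96 ± 0.19 (SD, n = 3), 9.41 ± 0.15 (SD, n = 4) and 8.74 ± 0.23 (SD, n = 4). The difference of *mdx* from C57 was 0.46 (SE 0.14, interval 0.15 to 0.76) and just missed the threshold, with a limma adjusted p of 0.0543. It passed without treated mouse 1 (0.0438) or treated mouse 2 (0.0241), which enter the fit through the shared estimate of the spread, and in limma fits with array weights (0.00364), of only these groups (0.0399) or with probe sets averaged per gene (0.0467).

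*Lgals1* had signals of 5148.7, 5148.7 and 5293.5 in C57, of 5792.6, 6165.5, 6080.6 and 6038.6 in *mdx*, and of 4640.3, 5480.2, 4871.0 and 4837.3 in treated muscle. The ranges of *mdx* and C57 did not overlap, though they were close. The log2 means were 12.34 ± 0.02 (SD, n = 3), 12.55 ± 0.04 (SD, n = 4) and 12.27 ± 0.10 (SD, n = 4). The *mdx* mean was 0.21 higher than C57 (SE 0.09, interval 0.03 to 0.40), which limma did not call (adjusted p = 0.141). It was called in 4 alternatives: limma with a trended and robust prior (adjusted p = 0.0364), limma with array weights (0.0263), and the methods' t-test on log2 (0.0196) and linear signals (0.0268).

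*Lgals8* followed another pattern. Its signals were 117.0, 101.8 and 101.8 in C57, 113.0, 120.3, 110.7 and 81.0 in *mdx*, and 159.8, 111.4, 158.7 and 174.9 in treated muscle. C57 and *mdx* overlapped, and 3 of the 4 treated mice lay above all other mice. The log2 means were 6.74 ± 0.12 (SD, n = 3), 6.71 ± 0.26 (SD, n = 4) and 7.22 ± 0.29 (SD, n = 4). No difference between *mdx* and C57 was resolved, the estimate being -0.02 with an interval of -0.39 to 0.34. Of the 5 members, 4 (*Lgals1*, *Lgals3*, *Lgals3bp* and *Lgals9*) had all *mdx* mice above all C57 mice, and 13.1% of all tested probe sets did so.

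**Figure D1:**
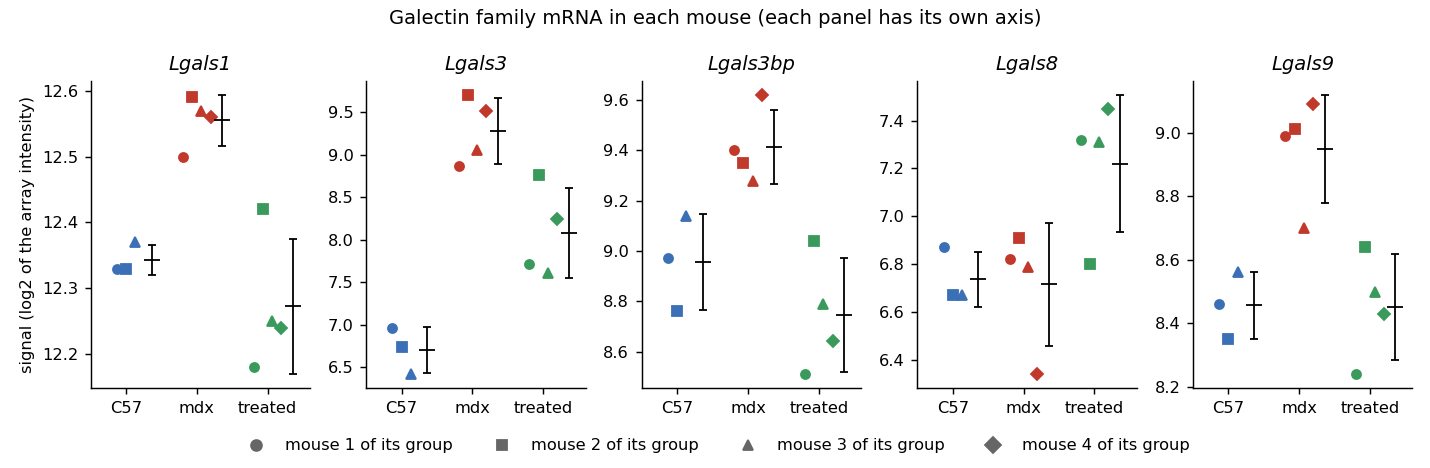
Signal of each galectin family member in each mouse, as log2 of the array intensity on the y axis, with C57 (n = 3), *mdx* (n = 4) and treated *mdx* (n = 4) mice on the x axis; each panel has its own axis, and bars show the mean and SD. The *mdx* mice sit above the C57 mice for all members but *Lgals8*, for which 3 of the 4 treated mice are highest.

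The treated and untreated *mdx* mice were compared to ask which members differed after treatment. No group here was given a control injection, so exon skipping and other effects of the injected compound cannot be told apart. *Lgals3*, *Lgals3bp*, *Lgals9* and *Lgals1* fell with treatment, whereas *Lgals8* had a higher mean without passing the test. In this comparison 4 of 5 members were called, all lower, where 11.1% of all tested probe sets were called and 3.88% were called lower. The same 4 had every treated mouse below every *mdx* mouse, as did 6.69% of all tested probe sets. The median difference of the 5 was -0.49, against 0.02 over all. These 5 values share the *mdx* mice with the comparison above.

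*Lgals3* fell by 1.20 on the log2 scale (SE 0.25, interval of the difference -1.76 to -0.65, limma adjusted p = 0.0187), which is 2.30-fold lower. *Lgals3bp* fell by 0.67 (SE 0.13, interval -0.95 to -0.39, adjusted p = 0.0146), or 1.59-fold. *Lgals9* fell by 0.49 (SE 0.11, interval -0.74 to -0.25, adjusted p = 0.0234), or 1.41-fold. The smallest of the 4 falls was that of the prototype galectin: *Lgals1* fell by 0.28 (SE 0.08, interval -0.45 to -0.11, adjusted p = 0.0410). *Lgals8* was 0.51 higher in the treated mice (SE 0.16, interval 0.17 to 0.84), 1.42-fold, with a limma adjusted p of 0.0553.

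With 4 mice a group, single mice decided several of these calls. *Lgals1* stayed past the threshold only without C57 mouse 3 or treated mouse 2, and its limma adjusted p lay between 0.0550 and 0.111 without any of the other 9 mice. *Lgals3* lost its call without *mdx* mouse 4 (0.0575), treated mouse 1 (0.0532) or treated mouse 3 (0.0550), *Lgals3bp* without treated mouse 4 (0.0502), and *Lgals9* without *mdx* mouse 4 (0.0698), treated mouse 1 (0.0601), 3 (0.0561) or 4 (0.0655). Between 1 and 5 members were called with a mouse left out, the fewest, 1, without *mdx* mouse 4 or treated mouse 1, 3 or 4. Over all tested probe sets the same comparison gave 1615 calls and moved between 296 (without treated mouse 4) and 4123 (without treated mouse 2). The 4 falls kept their direction with each mouse left out.

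Against C57, *Lgals3* was the only member called in the treated mice, in which it was higher. *Lgals3* was 1.37 above C57 (SE 0.27, interval 0.78 to 1.97), 2.59-fold, with a limma adjusted p of 0.00498, and the call held with each mouse left out. In this comparison 24.6% of all tested probe sets were called and 15.6% were called higher, so that 1 of 5 members was a share near the background. The treated mice lay wholly above C57 for *Lgals3* alone, and for 17.9% of all tested probe sets.

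*Lgals9* in treated muscle could not be told from C57, its difference being -0.00 with an interval of -0.27 to 0.26. The difference of *Lgals1* was -0.07 (interval -0.26 to 0.11; 0.03 after a repeated quantile normalisation) and that of *Lgals3bp* -0.21 (interval -0.52 to 0.09). *Lgals8* was 0.48 above C57 (SE 0.17, interval 0.12 to 0.85, limma adjusted p = 0.0536).

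**Figure D2:**
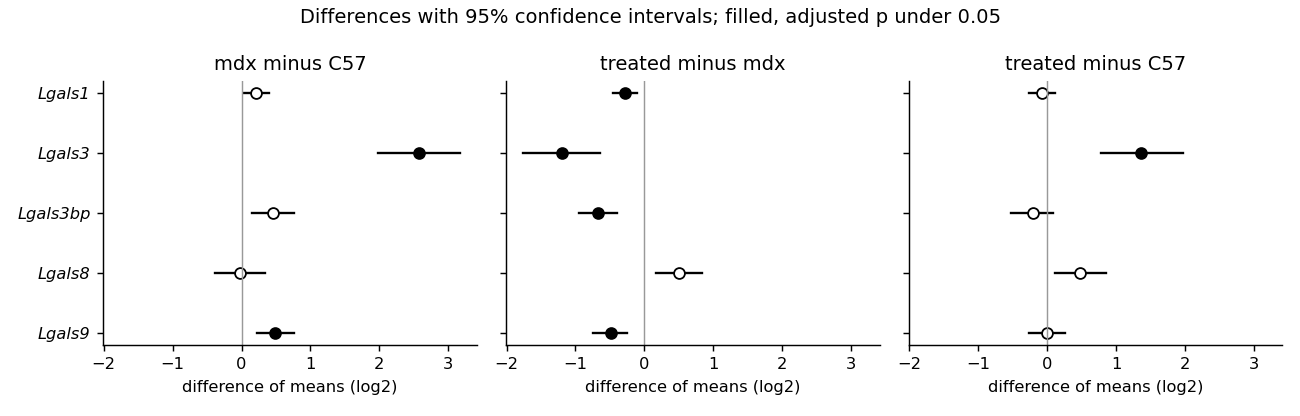
Differences of group means in log2 units on the x axis for the 5 members in 3 panels, which set *mdx* against C57, treated against *mdx* and treated against C57 (3 C57, 4 *mdx* and 4 treated mice), with 95% confidence intervals; filled points have a limma adjusted p under 0.05. *Lgals3* has the largest difference in each panel, and 4 members lie left of 0 between treated and *mdx* muscle.

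As a description, restoration was taken as the share of the gap from *mdx* to C57 that the treated mean had closed, on the log2 scale, for the members called between *mdx* and C57. The same *mdx* mice enter both parts of this share and the choice of members, so it was not tested. Restoration was 46.7% for *Lgals3* and 101% for *Lgals9*. In the 4 treated mice *Lgals3* reached 61.0%, 20.3%, 64.9% and 40.5%, and *Lgals9* reached 144%, 62.6%, 91.2% and 105%. Treated mouse 2 was thus the least restored of the 4 for both genes.

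Treated mouse 2 was the nearest to the *mdx* mean in all 5 members. The log2 difference of *Lgals3* from the *mdx* mean was -1.57, -0.52, -1.67 and -1.04 in treated mice 1 to 4, and that of *Lgals3bp* -0.90, -0.37, -0.62 and -0.77. *Lgals9* differed by -0.71, -0.31, -0.45 and -0.52, and *Lgals1* by -0.38, -0.13, -0.30 and -0.31. The spread among the treated mice was widest for *Lgals3* and narrowest for *Lgals1*. *Lgals8* differed by 0.61, 0.08, 0.59 and 0.74. Without treated mouse 2, *Lgals8* passed the test against *mdx* (0.65 higher, limma adjusted p = 0.00684) and against C57 (0.62 higher, limma adjusted p = 0.00745). All 5 members were then called between treated and *mdx* muscle, where 28.4% of all tested probe sets were called in that fit. Between treated and C57 muscle 2 members were called, where 34.1% of all tested probe sets were. Against C57, *Lgals8* also passed without *mdx* mouse 4 (adjusted p = 0.0336). Over all tested probe sets, the differences of treated mouse 2 from the mean of the rest of its group spread more widely than those of any other mouse. Their median absolute deviation, centred on their median and scaled to match an SD for normal values, was 0.381 in log2 units. It was 0.153 to 0.257 for the other 10.

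**Figure D3:**
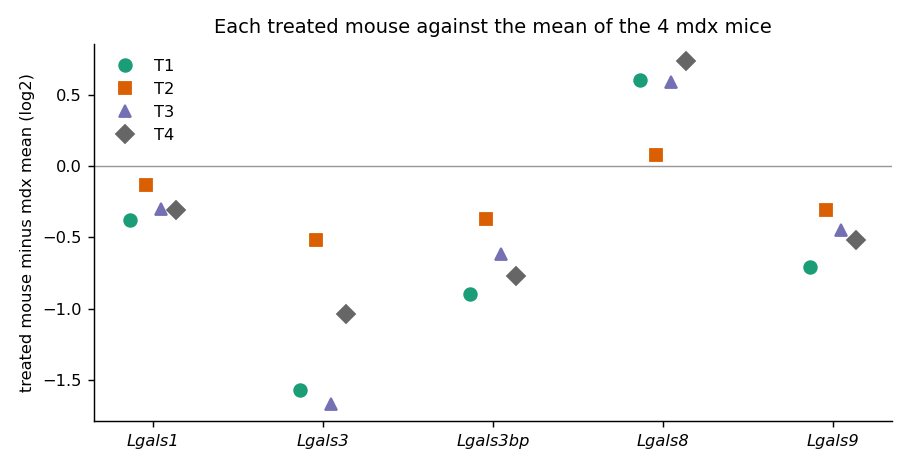
Difference of each treated mouse from the mean of the 4 *mdx* mice, in log2 units on the y axis, for the 5 members on the x axis; each symbol is 1 treated mouse, T1 to T4. T2 is the closest to 0 for every member, from 0.08 for *Lgals8* to -0.52 for *Lgals3*.

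Of 7 further galectin genes listed, 6 were on the array, and *Lgals6* was not analysed here. *Lgals4*, a galectin of the gut lining, and *Lgalsl*, a galectin-like gene that the table holds as 1110067D22Rik, passed the signal filter, and *Lgals2*, *Lgals7*, *Lgals12* and *Grifin* did not. *Lgalsl* was called in the direction opposite to the falling members. Its log2 means were 8.02 ± 0.05 (SD, n = 3) for C57, 7.52 ± 0.31 (SD, n = 4) for *mdx* and 8.19 ± 0.24 (SD, n = 4) for treated muscle. It rose by 0.67 with treatment (SE 0.15, limma adjusted p = 0.0242), and its difference of -0.50 between *mdx* and C57 had an adjusted p of 0.0754. No further galectin was called between treated and *mdx* muscle without *mdx* mouse 3 or 4 or treated mouse 3 or 4. *Lgals4* differed by -0.19 between *mdx* and C57 (limma adjusted p = 0.224) and by 0.14 between treated and *mdx* (0.280).

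A list of 23 receptors and matrix ligands of galectins was read beside the members, of which 19 were tested and *Spn*, *Lag3*, *Havcr2* and *Calcoco2* were below the filter. Between *mdx* and C57, 13 of the 19 rose and 0 fell, with a median difference of 0.63, where 7.06% of all tested probe sets were called higher. With a mouse left out, the higher calls ranged from 9 (without C57 mouse 3) to 15 (without treated mouse 2), and the lower calls stayed 0. Those fits called 7.83% and 15.2% of all tested probe sets. With all mice in the fit, *Trem2*, a receptor of macrophages, rose by 2.00 (SE 0.29, limma adjusted p = 9.2e-04). Among matrix proteins, *Col4a1* of the basement membrane rose by 1.04 (SE 0.14, adjusted p = 7.3e-04), fibronectin (*Fn1*) by 0.96 (SE 0.15, adjusted p = 0.00138) and *Col6a1* by 0.90 (SE 0.15, adjusted p = 0.00263). The laminin chains *Lamb1*, *Lama2* and *Lamc1* rose by 0.77, 0.69 and 0.48, and nidogen (*Nid1*), which links laminin to collagen, by 0.62.

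Cell-surface partners rose as well. The hyaluronan receptor *Cd44* rose by 0.83 (SE 0.13, limma adjusted p = 0.00207), podoplanin (*Pdpn*) by 1.04, the leukocyte phosphatase *Ptprc* (CD45) by 0.59, and the laminin receptor chains *Itgb1* and *Itga7* by 0.63 and 0.57. The 6 not called were *Lamp2* (0.66, limma adjusted p = 0.0559), *Col5a1* (0.50, 0.104), *Mertk* (0.10), *Nrp1* (0.08), *Bsg* (0.06) and *Lamp1* (-0.01).

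With treatment, 3 of these 19 partners were called, a share near the 11.1% of all tested probe sets. *Trem2* fell by 0.96 (SE 0.26, limma adjusted p = 0.0390), while *Itgb1* rose by a further 0.58 (SE 0.14, adjusted p = 0.0284) and *Nrp1*, a co-receptor for semaphorins and vascular growth factor, rose by 0.76 (SE 0.19, adjusted p = 0.0319). The median difference over the 19 was 0.05. Against C57, 15 of the 19 were called higher in treated muscle and 0 lower, where 15.6% of all tested probe sets were called higher. The median difference over the 19 was 0.84. *Col4a1* (1.23), *Itgb1* (1.21), the lysosomal protein *Lamp2* (1.21) and *Lamb1* (1.10) were among the 15. The calls against *mdx* ranged from 0 to 7 with a mouse left out. There were 0 without *mdx* mouse 3 or 4 or treated mouse 1, 3 or 4, and 3 higher and 4 lower without treated mouse 2. In the fit without treated mouse 2, 28.4% of all tested probe sets were called against *mdx*. Without C57 mouse 1, 2 or 3 or *mdx* mouse 2, the higher calls were 2 and the lower calls 0, so that of *Trem2* was lost. The calls against C57 fell to 8 without C57 mouse 3.

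**Figure D4:**
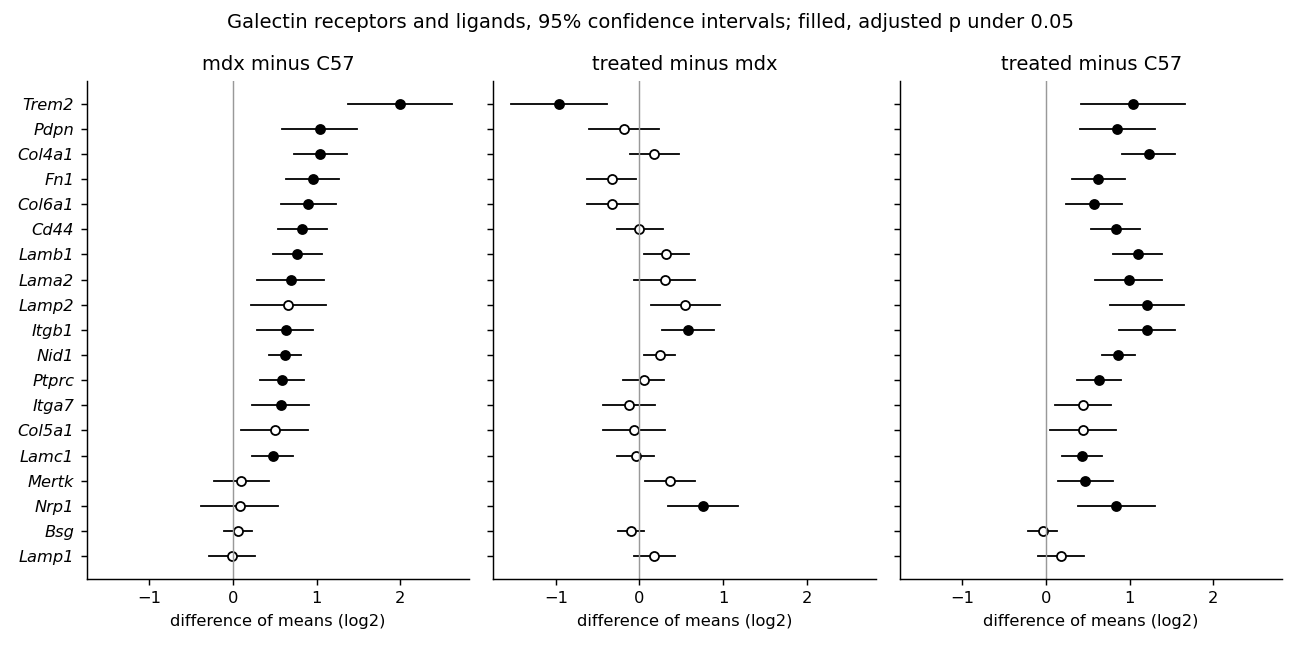
Differences of group means in log2 units on the x axis for the 19 tested receptors and ligands of galectins, ordered by *mdx* minus C57, with 95% confidence intervals (3 C57, 4 *mdx* and 4 treated mice); filled points have a limma adjusted p under 0.05. With all mice in the fit, *Trem2* is the only gene called lower in treated than in *mdx* muscle, and 15 of the 19 are called higher in treated than in C57 muscle.

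Among the 12 listed enzymes that build or cap the glycans read by galectins, 10 were tested, and *Mgat3* and *Gcnt1* were below the filter. Between *mdx* and C57, where 7.06% of all tested probe sets were called higher, 3 rose and 0 fell. These were the Golgi mannosidase *Man2a1*, which trims N-glycans before they branch (0.52, SE 0.11, limma adjusted p = 0.00705), the sialyltransferase *St3gal1* (0.43, SE 0.11, adjusted p = 0.0273) and *B3gnt2*, which extends the poly-N-acetyllactosamine chains that galectins prefer (0.39, SE 0.11, adjusted p = 0.0465). The branching enzyme *Mgat5* differed by 0.39 without being called (adjusted p = 0.0854), and *St6gal1*, whose sialic acid blocks galectin binding, by -0.06. The count of 3 higher enzymes fell to 1 without C57 mouse 2 or 3 or *mdx* mouse 2. It was 5 without treated mouse 2, where 15.2% of all tested probe sets were called.

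*Man2a1* also rose with treatment, by 0.36 (SE 0.10, limma adjusted p = 0.0388), and was the only enzyme of the 10 to be called there, where 11.1% of all tested probe sets were called. Its signals ran from 97.7 to 125 over the C57 mice, from 142 to 163 over the *mdx* mice and from 186 to 218 over the treated mice, so the 3 groups did not overlap. Against C57, treated muscle had higher *Man2a1* (0.88), *B3gnt2* (0.71) and *Mgat2* (0.64, a branching enzyme). These were 3 of the 10 tested, where 24.6% of all tested probe sets were called and 15.6% were called higher. With a mouse left out, between 0 and 2 enzymes were called against *mdx*. The call of *Man2a1* was lost without C57 mouse 2, any single *mdx* mouse or treated mouse 1, 3 or 4, where 0 enzymes were called higher. Without *mdx* mouse 1, 1 enzyme was called lower.

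In whole muscle sections, fewer cells of a type and less RNA per cell cannot be told apart, so markers of the cell types that the TA can hold were read beside the members. The summed signal of 10 macrophage markers spanned 1624 to 2037 over the C57 mice, 4087 to 6134 over the *mdx* mice and 2794 to 4190 over the treated mice. *Cd163* and *Msr1* were below the filter. Of the 8 tested, 7 rose in *mdx*, where 7.06% of all tested probe sets were called higher. *Cd68* rose by 2.12 (SE 0.26, limma adjusted p = 3.4e-04) and *C1qb*, a complement subunit made by macrophages, by 1.53 (SE 0.19, adjusted p = 4.0e-04). Without C57 mouse 3, 9 markers were tested between *mdx* and C57, of which 5 were called higher and 1 lower. In that fit 7.83% of all tested probe sets were called. The count was unchanged without any other mouse. With treatment *Cd68* fell by 1.03 (adjusted p = 0.0245) and *C1qb* by 1.07 (adjusted p = 0.00911), whereas *Mrc1*, a marker of repair-type macrophages, rose by 0.49 (adjusted p = 0.0377). The higher call was lost without C57 mouse 2, *mdx* mouse 1, 3 or 4 or treated mouse 1, 3 or 4. The lower calls numbered 1 without *mdx* mouse 2 or 4 or treated mouse 1, 3 or 4. They numbered 3 without treated mouse 2, where 28.4% of all tested probe sets were called between treated and *mdx*. The other macrophage markers tested were not called with treatment. *C1qa* differed by -0.75 (limma adjusted p = 0.0739), *Csf1r* by -0.41, *Lyz2* by -0.34, *Adgre1* (F4/80) by -0.24 and *Fcgr1* by -0.23. Of the 8 tested, 5 had an unadjusted limma p under 0.05 with treatment.

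Over the *mdx* mice, the macrophage sum was 4087, 6134, 4680 and 5530 for mice 1 to 4, the same order as that of *Lgals3*. The sums were 2794, 4190, 3103 and 3074 in the treated mice and 2037, 1624 and 1675 in C57. In both of these groups the same mouse (treated mouse 2 and C57 mouse 1) was highest in both measures, but the order of the other mice differed. The part of macrophages in the levels of *Lgals3* was not tested. All 7 T cell markers had a mean signal under 30 in every group, which is below the filter for testing.

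**Figure D5:**
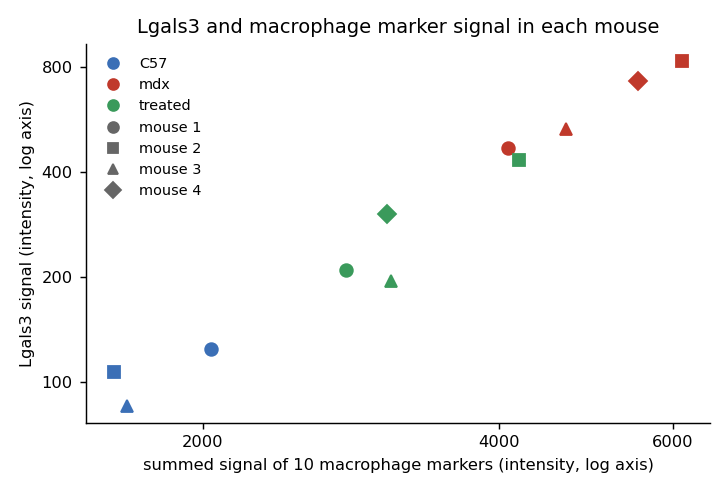
*Lgals3* signal (array intensity, y axis) against the summed signal of 10 macrophage markers (x axis) in the 11 mice, both on log axes; colours mark the group and shapes the mouse number. C57 mice lie at sums up to 2037, *mdx* mice from 4087, and treated mice between 2794 and 4190, with treated mouse 2 beside *mdx* mouse 1.

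Markers of regenerating fibres, which include the fusion gene *Mymk* and the embryonic myosin *Myh3*, had a sum over 6 genes that spanned 610 to 779 over the C57 mice, 1273 to 1991 over the *mdx* mice and 739 to 1467 over the treated mice, the highest treated value being that of mouse 2. Of the 6, 5 rose in *mdx*, and limma called 0 with treatment, 3 having an unadjusted p under 0.05. Without treated mouse 2, 4 of the 6 were called lower, where 1745 of 14535 tested probe sets were called lower. Fibroblast markers summed to 5047 to 6758, 7309 to 8891 and 6919 to 11399 for C57, *mdx* and treated mice, with 3 of 7 higher in *mdx* and 0 called by limma with treatment, where 1 had an unadjusted p under 0.05. Endothelial markers summed to 1975 to 2364, 2107 to 2584 and 2487 to 3227, with 0 of 6 called by limma in *mdx* (1 at an unadjusted p under 0.05) and 2 higher with treatment. None of the 6 mature fibre markers was called by limma in any comparison (1 had an unadjusted p under 0.05, between treated and C57), and their sum stayed between 41493 and 44432 over all 11 mice. Against C57, treated muscle had 5 of 8 macrophage, 3 of 6 regenerating fibre, 5 of 7 fibroblast and 3 of 6 endothelial markers called higher. The regenerating fibre count was 1 without C57 mouse 2 or 3. Without C57 mouse 3, 9 macrophage markers were tested against C57, of which 4 were called higher and 1 lower in treated muscle. In that fit 13.1% of all tested probe sets were called. With all mice in the fit, 7.06% of all tested probe sets were called higher between *mdx* and C57 and 15.6% between treated and C57. Between treated and *mdx*, 11.1% were called in either direction. The share of all tested probe sets with an unadjusted p under 0.05 was not counted. The part of these cell types in the members' levels was not tested.

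The pattern of each member over the 11 mice was compared by Pearson's r among 11844 tested genes, with the members left out of the ranking. The r values are given without a test because the mice form 3 groups that differ in both genes. *Lgals3* was most like the macrophage genes *Cd68* (r = 0.986) and *Trem2* (0.984) and the tumour necrosis factor receptor gene *Tnfrsf1b* (0.976). *Lgals8* was most like *Tek* (0.982), the angiopoietin receptor of endothelium, *Cryzl1* (0.979) and *Tmem67* (0.979). *Lgals1* came closest to *Lbp* (0.983), a lipopolysaccharide-binding protein, *Blvrb* (0.981), a biliverdin reductase, and *Crip1* (0.973). *Lgals3bp* came closest to *Rnh1* (0.975), the ribonuclease inhibitor, *Blvrb* (0.961) and *Stra13*, now named *Cenpx* (0.960). *Lgals9* came closest to *Ces2d-ps* (0.966), *AI413582* (0.954) and *Eno1* (0.954), of which the probe sets of *Ces2d-ps* and *Eno1* may cross-hybridise. *Blvrb* was thus shared by *Lgals1* and *Lgals3bp*.

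*Dmd* itself had log2 means of 5.82 ± 0.05 (SD, n = 3), 5.28 ± 0.50 (SD, n = 4) and 5.80 ± 0.37 (SD, n = 4) for the C57, *mdx* and treated mice. The mutation leaves the transcript's probes in place, so these levels do not check the labels. The array medians lay between 27.5 and 28.6 over the 11 mice.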

How the data were processed

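Total RNA of the TA was hybridised to Affymetrix Mouse Gene ST 1.1 arrays, 1 per mouse. The authors made the intensity values with Affymetrix Expression Console by RMA and deposited them on a linear scale. The log2 of 100% of values lay on a whole hundredth to within 0.0001, so smaller differences are not resolved, and RMA tends to compress folds. No number of reads applies, and precision is limited by the number of arrays. Groups came from the labels, and all sample columns were mapped to a mouse.

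The log2 signals of all 3 groups entered a single limma 3.58.1 fit (R 4.3.3) without covariates, kept to probe sets whose mean signal reached 30 in any group. Calls required p under 0.05 after Benjamini-Hochberg adjustment across all tested probe sets. Confidence intervals (95%) are unadjusted. Where a gene had more than 1 probe set, the brightest was taken. The fit was tested on simulated data. Tables and figures were made with Python 3.11.15, pandas 2.3.3, NumPy 2.4.6 and matplotlib 3.10.9.

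The members and gene lists were chosen with earlier results of these data known. Named genes were the members, each called gene or the 4 largest differences between *mdx* and C57 of the galectin, partner and enzyme lists, the 3 genes most like each member, and *Dmd*. Marker genes were named after their values were seen. Alternatives were other filters, normalisations, priors, array weights, the methods' t-test, other treatment of multiple probe sets, a replicate block and leaving out each mouse. The threshold of the study's text (unadjusted p under 0.01 and 1.5-fold), and the list counts with a mouse left out, were added after seeing the data. Promoters came from RefSeq (GRCm38.p6).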

Additional observations from a re-analysis of the deposited data

How the results depend on the processing

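The members called numbered 2 between *mdx* and C57, 4 between treated and *mdx* and 1 between treated and C57. With array weights these became 4, 5 and 2, with the methods' t-test on log2 signals 2, 0 and 0, and with that t-test on linear signals 1, 0 and 0. By the t-test on log2 signals, the 2 called between *mdx* and C57 were *Lgals1* and *Lgals3*, with *Lgals9* lost (adjusted p = 0.0773), and on linear signals the only 1 was *Lgals1*. By either t-test 4, 5 and 2 members had an unadjusted p under 0.05. The share of all tested probe sets at that cut was not counted. At the threshold of the study's text, the members called became 1, 2 and 1 with limma and 1, 1 and 1 with the t-test. Of all tested probe sets, that threshold called 7.55%, 5% and 11.2% with limma and 5.88%, 2.33% and 7.56% with the t-test. A mean over a gene's probe sets gave 3, 4 and 2, where 13.6%, 11.5% and 26.4% of all tested genes were called. Between *mdx* and C57 the trended prior and the fit of only the groups compared also gave 3. Those fits called 11.9% and 13% of all tested probe sets. With a mouse left out, the counts ranged from 1 to 3, from 1 to 5 and from 1 to 2. Mice of the same number did not deviate together (correlations from -0.297 to 0.153), and the labels give no pairing, so the numbers do not pair the mice. A fit with the replicate block called 1, 2 and 1 members and 1145, 498 and 2332 probe sets in all, against 1742, 1615 and 3564 without it. *Lgals8* between *mdx* and C57 (-0.02) was 0.04 with array weights, 0.00 with the replicate block and -0.09 to 0.10 with a mouse left out. Between treated and C57, *Lgals1* (-0.07) was 0.03 after a repeated quantile normalisation, and *Lgals9* (-0.00) was 0.06 with array weights and -0.07 to 0.07 with a mouse left out. These 3 differences lay near 0 and were called under no alternative. Every other member difference kept its direction in all 25 alternatives. *Lgals3* between *mdx* and C57 was called in 24 of them (2.43 to 2.71), the exception being the t-test on linear signals (adjusted p = 0.0630). Restoration ranged from 40.6% to 55.5% for *Lgals3* and from 86.4% to 114% for *Lgals9* with a mouse left out.

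Over all probe sets, the calls in the same order were 3379, 4614 and 6547 with array weights, 791, 88 and 1274 with the t-test on log2 signals and 538, 77 and 879 with that on linear signals. Fitting only the groups compared gave 730 between treated and *mdx*. The calls split into 1023 higher and 719 lower between *mdx* and C57, and 2265 and 1299 between treated and C57. Centring the arrays on their medians made these 881 and 892, and 1960 and 1875, and moved the median difference of all probe sets from -0.011, 0.018 and 0.003 to -0.053, 0.013 and -0.043 in the 3 comparisons. A repeated quantile normalisation made the latter split 1736 and 1863, and turned 1052 and 563 between treated and *mdx* into 738 and 586.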
